A study of Mus musculus with 2 samples.

Results

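Antioxidant and thiol redox enzymes remove superoxide and peroxides and keep protein cysteines reduced. Superoxide dismutases turn superoxide into hydrogen peroxide, which catalase, the glutathione peroxidases and the peroxiredoxins break down. The glutathione and thioredoxin systems return the peroxidases and peroxiredoxins to their reduced form with electrons from NADPH. Haem oxygenases and biliverdin reductases degrade haem to bilirubin. In red cells the pathway is known for protecting haemoglobin, whose iron gives off superoxide, and peroxiredoxin 2 is among the abundant proteins of mature red cells. The 35 genes described here were a fixed list, chosen by name from these enzyme families and matched by Ensembl gene identifier. All 35 were found among the 43346 Ensembl genes of the gene tables, of which 21474 were protein-coding.

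Their levels came from paired-end RNA-seq of G1E-ER4 cells, a mouse erythroid line that the labels call immortalized. Its parent, G1E, lacks Gata1, a transcription factor needed for red cell formation, and G1E-ER4 cells carry GATA1 fused to the ligand-binding part of the estrogen receptor. Per the labels, Gata1 was restored in these cells and estradiol was used to bring on differentiation, and neither a dose nor a duration is given there. The labels give a male, postnatal source with an age of 0 days. All the data form 1 group of 2 libraries, replicate 1 and replicate 2, with no untreated cells and no other line, so every value describes induced cells of 1 line and no condition can be compared. Since both libraries point to 1 biosample record, the spread between them may be technical only.

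Replicate 1 was the deeper library, with 68901065 estimated counts against 51923116 in replicate 2. Levels are TPM, the abundance of transcripts relative to all transcripts of the library, which takes transcript length into account. All 11 erythroid markers examined reached 1 TPM in both libraries, with Gata1 at 1498 TPM in replicate 1 and 2430 in replicate 2, although Alas2 stood at 1.44 and 2.00 TPM. Of 16 markers of other cell types, Itga2b alone reached that level in both, at 18.2 TPM in replicate 1 and 29.3 in replicate 2. The 16 summed to 20.5 TPM in replicate 1 and 32.7 in replicate 2, and 6 of them had 0 counts in both. In such bulk samples, fewer cells of a type and less RNA per cell cannot be told apart.

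Selenocysteine, an amino acid written by a TGA codon that would otherwise end translation, sets some of these enzymes apart. A search of the GENCODE M21 coding sequences on build mm10 found 1 in-frame TGA in 6 of the 35 genes and none in the others. The windows of the glutathione peroxidases follow, 5′ to 3′ on the coding strand. They show the codon that separates the selenium enzymes from their cysteine relatives, with the selenocysteine codon, or the cysteine codon aligned to it, in capitals.
Gpx1, plus strand of chr9:108339436-108339468: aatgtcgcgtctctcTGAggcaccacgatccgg
Gpx3, plus strand of chr11:54907241-54907273: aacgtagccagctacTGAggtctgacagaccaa
Gpx4, plus strand of chr10:80054722-80054754: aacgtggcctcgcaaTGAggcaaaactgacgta
Gpx7, minus strand of chr4:108403415-108403447: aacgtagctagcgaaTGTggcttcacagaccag
Gpx8, minus strand of chr13:113045646-113045678: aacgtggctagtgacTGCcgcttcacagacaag
In the 3 thioredoxin reductases the same codon is the last but 1 before the stop. Their windows therefore end at the stop codon, with the selenocysteine codon again in capitals.
Txnrd1, plus strand of chr10:82896022-82896045: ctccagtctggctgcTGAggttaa
Txnrd2, plus strand of chr16:18477757-18477780: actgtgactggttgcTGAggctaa
Txnrd3, plus strand of chr6:89674774-89674797: actcagaaaggctgcTGAggctag

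The thioredoxins and glutaredoxins share a 4-codon active site, and the second cysteine of that site separates dithiol from monothiol enzymes. The windows below show this difference, with the 4 active-site codons in capitals.
Txn1: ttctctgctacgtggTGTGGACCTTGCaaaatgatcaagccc
Txn2: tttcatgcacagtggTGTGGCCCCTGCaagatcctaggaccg
Glrx: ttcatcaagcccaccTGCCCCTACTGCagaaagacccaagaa
Glrx2: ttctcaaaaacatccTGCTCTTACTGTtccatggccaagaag
Glrx5: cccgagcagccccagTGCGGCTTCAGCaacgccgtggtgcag
These coding windows lie in mm10 within chr4:57951806-57951847 for Txn1 on the minus strand, chr15:77924636-77927702 for Txn2 on the minus strand, across an intron, chr13:75840020-75840061 for Glrx, chr1:143745077-143745118 for Glrx2 and chr12:105032871-105032912 for Glrx5, the last 3 on the plus strand. Both thioredoxins, Glrx and Glrx2 have a cysteine codon at either end of the site, whereas Glrx5 ends it with a serine codon. Glrx3 holds 2 such sites, both ending in serine.

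Of the 35 genes, 30 reached 1 TPM in both libraries and are called detected, beside 39.0% of all protein-coding genes. The median of their mean levels was 36.0 TPM over all 35 and 82.7 TPM over the 30 detected, beside 0.025 TPM over all protein-coding genes and 20.5 TPM over the 8376 detected ones. On average 5 genes stood above 500 TPM (Gpx4, Blvrb, Glrx5, Sod1 and Gclm), 5 between 100 and 500 TPM, 14 between 10 and 100 TPM and 6 at or below 10 TPM although detected. The 5 not detected were Gpx3, Gpx7, Gpx8, Sod3 and Nqo1. Together the 35 genes made up 0.724% of all TPM in replicate 1 and 0.715% in replicate 2.

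**Figure D1:**
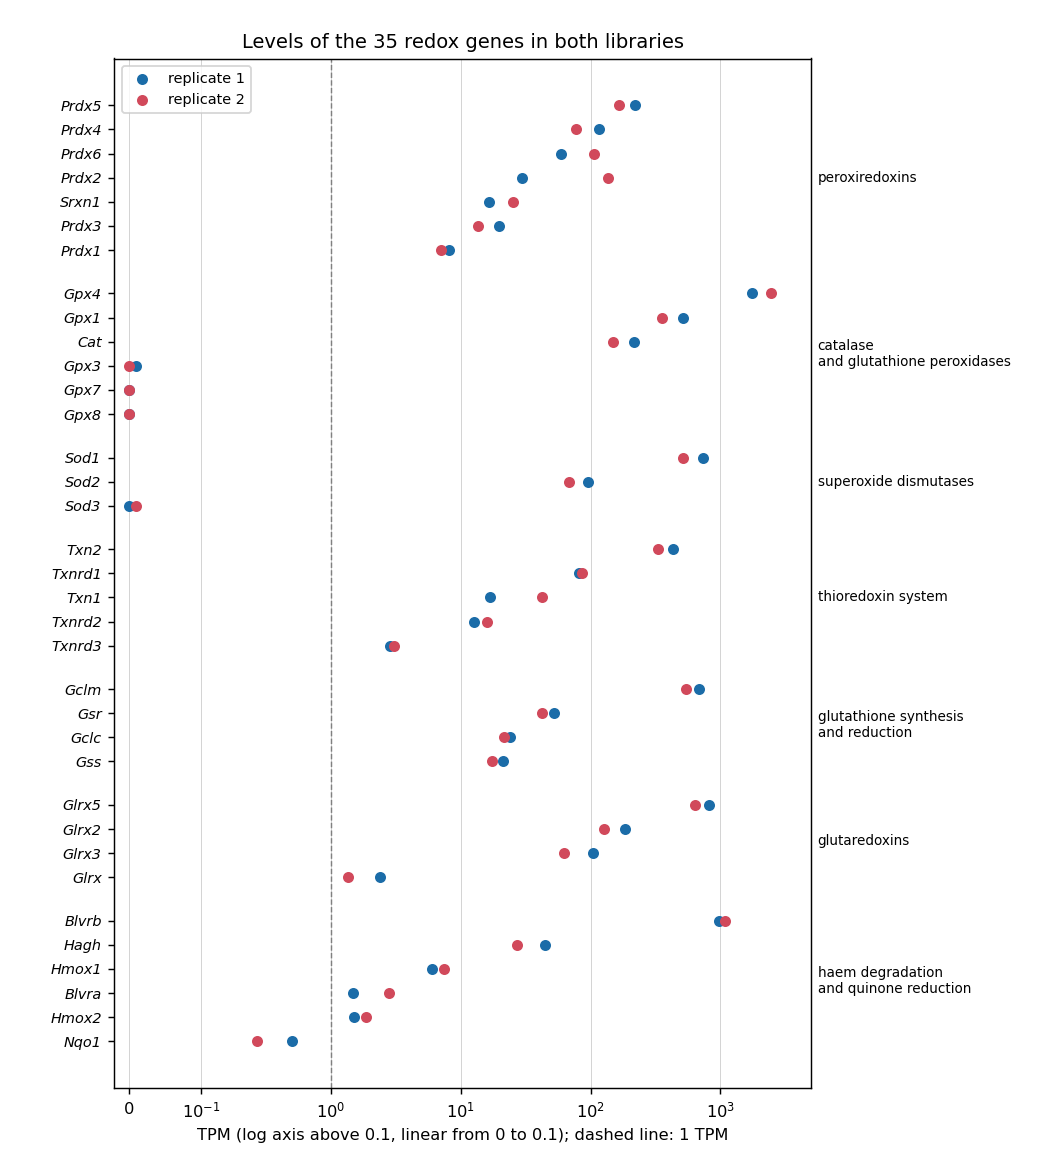
TPM of each of the 35 genes in replicate 1 (blue) and replicate 2 (red), grouped by role and ordered by mean within a role, on an axis that is logarithmic above 0.1 TPM and linear below it; the dashed line marks 1 TPM. Gpx4 lies at the right end with 1755 TPM in replicate 1 and 2472 in replicate 2, and 5 genes lie below the line in both libraries.

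All 7 genes of the peroxiredoxin group were detected, at mean levels between 7.62 and 192 TPM. Prdx5, whose enzyme sits in mitochondria, peroxisomes and the cytosol, was the highest, at 218 TPM in replicate 1 and 166 in replicate 2, averaging 192 ± 37.2 TPM (SD, n = 2). Prdx4, the peroxiredoxin of the endoplasmic reticulum, followed by mean TPM, at 116 TPM in replicate 1 and 77.2 in replicate 2. The values of Prdx5 lay above those of Prdx4 without overlap. By TPM both genes were higher in replicate 1, but by scaled counts Prdx5 was 1.11-fold higher in replicate 2.

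Prdx2 encodes the cytosolic peroxiredoxin best known from red cells, at mm10 chr8:84969587-84974834. It had 29.6 TPM in replicate 1 and 137 in replicate 2, averaging 83.1 ± 75.7 TPM (SD, n = 2). Its SD was therefore close to its mean, and its place among the peroxiredoxins differed between the libraries. Prdx2 shares 16.5% of its 31-base stretches with other genes, among them the pseudogene Tdpx-ps1, Junb and Rnaseh2a. Junb had 94.4 TPM in replicate 1 and 68.0 in replicate 2, and Rnaseh2a had 810 and 736 TPM. The part of this sharing in the level of Prdx2 was not tested. Prdx6, which also acts on lipid peroxides, had 59.7 TPM in replicate 1 and 107 in replicate 2. It was above Prdx2 in replicate 1 and below it in replicate 2, and both stood below Prdx4 in replicate 1 and above it in replicate 2. In estimated counts Prdx6 over Prdx4 was 0.93 in replicate 1 and 3.22 in replicate 2. Prdx3, the mitochondrial member, stood at 19.7 TPM in replicate 1 and 13.5 in replicate 2.

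Prdx1, the other cytosolic peroxiredoxin, was the lowest of the group, at 8.15 TPM in replicate 1 and 7.10 in replicate 2. Its ratio to Prdx2 was 0.28 in replicate 1 and 0.05 in replicate 2, so Prdx2 was the higher of the cytosolic pair in both libraries, by 3.63-fold in replicate 1 and 19.2-fold in replicate 2. Prdx1 shares 15.4% of its 31-base stretches with other genes, among them the pseudogenes Gm21399 and Gm7204. Gm21399 had 0 counts in replicate 1 and 1 in replicate 2, and Gm7204 had 7 and 4, against 367 and 191 for Prdx1. The part of that sharing in the low level of Prdx1 was not tested. Srxn1, the sulfiredoxin that repairs overoxidized peroxiredoxins, had 16.4 TPM in replicate 1 and 25.3 in replicate 2. By TPM Prdx5 exceeded Prdx3 by 11.1-fold in replicate 1 and 12.2-fold in replicate 2, a ratio that was close in both. In estimated counts the ratio was lower and less alike, at 4.36 in replicate 1 and 6.51 in replicate 2. Prdx5 shares 16.9% of its 31-base stretches with its neighbour Trmt112, which itself had 347 TPM in replicate 1 and 251 in replicate 2.

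Among the enzymes that break down hydrogen peroxide, Gpx4, Gpx1 and Cat were abundant, whereas Gpx3, Gpx7 and Gpx8 were not detected. Gpx4, which reduces lipid peroxides within membranes, ranked at percentile 99.2 of the detected protein-coding genes. It had 1755 TPM in replicate 1 and 2472 in replicate 2, averaging 2114 ± 507 TPM (SD, n = 2). Gpx1, the cytosolic glutathione peroxidase, had 517 TPM in replicate 1 and 356 in replicate 2. Cat, the catalase gene, had 218 TPM in replicate 1 and 150 in replicate 2. By TPM over all transcript models the 3 kept this order in both libraries and did not overlap. In estimated counts Cat stood above Gpx1 in replicate 2, with 12840 against 10695. With protein-coding models alone, Gpx4 stood below Gpx1 and Cat in replicate 1, at 137 TPM against 514 and 218 TPM.

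Gpx3, the secreted plasma glutathione peroxidase, had 1 count in replicate 1 and 0 counts in replicate 2. Gpx7 and Gpx8, the cysteine-bearing members of the endoplasmic reticulum, had 0 counts in both libraries. A count of 0 allows a share of counts of up to 4.35e-06% in replicate 1 and 5.78e-06% in replicate 2, taking 3 counts as the limit and covering counting error only. The detected glutathione peroxidases of the list were thus 2 of the 3 with a selenocysteine codon and neither of those with cysteine in its place. This covers the list alone and not the whole family. Gpx2, Gpx5 and Gpx6, outside the list and named after their values were seen, had 0 counts in both libraries.

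The TPM of Gpx4 rested largely on 1 short transcript model. A retained-intron model of 280 bases took 76.7% of the gene's TPM in replicate 1 and 82.9% in replicate 2. TPM divides reads by the length left after fragment size, which for this model was 121 bases in replicate 1. Protein-coding models held 7.83% of the gene's TPM in replicate 1 and 16.8% in replicate 2, which is 137 TPM and 415 TPM. With the protein-coding models alone, the ratio of Gpx1 to Gpx4 was 3.74 in replicate 1 and 0.85 in replicate 2, against 0.29 in replicate 1 and 0.14 in replicate 2 with all models. In estimated counts, not divided by length, it was 0.72 in replicate 1 and 0.39 in replicate 2. In replicate 1 the order of these genes therefore turned with the models counted, whereas in replicate 2 Gpx4 was the higher by all 3 measures. Of the 280-base model, 84.0% of the 31-base stretches also occur in coding models of Gpx4. Moreover, 38.9% of the 31-base stretches of Gpx4 occur in other genes of GENCODE M21, namely Gpx4-ps2 and AC122253.3. No level was available for either, and the part of this sharing in the reads of Gpx4 was not tested.

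Sod1 and Sod2 were abundant, and Sod3, the extracellular superoxide dismutase, had 1 count in each library. Sod1, the cytosolic copper and zinc enzyme, had 735 TPM in replicate 1 and 513 in replicate 2, averaging 624 ± 157 TPM (SD, n = 2). Sod2, the mitochondrial manganese enzyme, had 95.7 TPM in replicate 1 and 68.7 in replicate 2. Sod1 exceeded Sod2 by 7.68-fold in replicate 1 and 7.47-fold in replicate 2. In estimated counts the ratio was 1.02 in replicate 1 and 1.01 in replicate 2, so the level per length differed where the counts did not. Sod2 shares 26.7% of its 31-base stretches with other genes, among them Rps6ka2, which stood at 0.03 TPM in replicate 1 and 0.06 in replicate 2.

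All 5 genes of the thioredoxin system were detected, at mean levels between 2.96 and 379 TPM. Txn2, the mitochondrial thioredoxin, had 428 TPM in replicate 1 and 330 in replicate 2. Txn1, the cytosolic thioredoxin, had 16.9 TPM in replicate 1 and 42.6 in replicate 2. The mitochondrial form was thus the higher, by 25.3-fold in replicate 1 and 7.75-fold in replicate 2. Txn1 shares 6.95% of its 31-base stretches with the pseudogene Txn-ps1, which had 0 counts in both libraries.

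The reductases had the opposite order. Txnrd1, the cytosolic thioredoxin reductase, had 81.7 TPM in replicate 1 and 86.5 in replicate 2, whereas Txnrd2, the mitochondrial one, had 12.7 TPM and 15.9 TPM. The ratio of Txnrd1 to Txnrd2 was 6.42 in replicate 1 and 5.44 in replicate 2. Txnrd3, a thioredoxin and glutathione reductase known from testis, had 2.88 TPM in replicate 1 and 3.04 in replicate 2. All 3 reductases carry the selenocysteine codon shown above, and their order was the same in both libraries.

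All 4 genes of glutathione synthesis and reduction were detected. Gclc, the catalytic subunit of the first and rate-limiting step, had 24.2 TPM in replicate 1 and 21.6 in replicate 2. Gclm, the modifier subunit of that enzyme at mm10 chr3:122245557-122270732, had 684 TPM in replicate 1 and 541 in replicate 2, averaging 612 ± 101 TPM (SD, n = 2). The subunits therefore differed, with Gclm higher by 28.3-fold in replicate 1 and 25.0-fold in replicate 2. Gss, glutathione synthetase, stood within 2-fold of Gclc in both libraries, at 21.1 TPM in replicate 1 and 17.6 in replicate 2. Gsr, glutathione reductase, had 51.9 TPM in replicate 1 and 42.6 in replicate 2.

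A processed-transcript model of 762 bases, annotated without a protein, carried 95.1% of the TPM of Gclm in replicate 1 and 95.2% in replicate 2. The protein-coding models held 32.5 TPM in replicate 1 and 24.9 in replicate 2. With those alone, Gclm over Gclc was 1.35 in replicate 1 and 1.15 in replicate 2. In estimated counts, Gclm over Gclc was 6.55 in replicate 1 and 5.62 in replicate 2. The size of the excess of Gclm thus depended on the models counted, while its direction was the same by each measure. With protein-coding models alone the subunits stood within 2-fold in both libraries.

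All 4 glutaredoxins were detected, at mean levels between 1.88 and 726 TPM. Glrx5, the mitochondrial monothiol glutaredoxin of iron-sulfur cluster assembly, needed for haem synthesis, was the highest. It had 811 TPM in replicate 1 and 641 in replicate 2, averaging 726 ± 120 TPM (SD, n = 2). Glrx3, the cytosolic monothiol member, had 104 TPM in replicate 1 and 62.4 in replicate 2. Glrx5 therefore stood above Glrx3 by 7.79-fold in replicate 1 and 10.3-fold in replicate 2.

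The dithiol members were further apart. Glrx2, of mitochondria, had 183 TPM in replicate 1 and 127 in replicate 2. Glrx, the cytosolic dithiol glutaredoxin, had 2.41 TPM in replicate 1 and 1.35 in replicate 2, from 172 and 73 counts. Glrx3 exceeded Glrx by 43.2-fold in replicate 1 and 46.2-fold in replicate 2. Glrx2 placed 17.6% of its TPM in replicate 1 and 18.2% in replicate 2 in protein-coding models, and with those alone Glrx5 exceeded it by 25.1-fold in replicate 1 and 27.7-fold in replicate 2, against 4.43-fold and 5.03-fold with all models. Glrx3 shares 16.6% of its 31-base stretches with the pseudogene Gm12669, which had 0.34 TPM in replicate 1 and 0.29 in replicate 2.

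In haem degradation, Blvrb was abundant and the other genes were low. Blvrb, biliverdin reductase B, which also acts as a flavin reductase in red cells, had 974 TPM in replicate 1 and 1082 in replicate 2, averaging 1028 ± 76.8 TPM (SD, n = 2). Blvra, the biliverdin reductase of adult haem breakdown, had 1.47 TPM in replicate 1 and 2.78 in replicate 2, from 89 and 127 counts. Blvrb over Blvra was 662 in replicate 1 and 389 in replicate 2, so the B form was the higher by more than 2 orders of magnitude. Blvrb over Hmox2 was 645 in replicate 1 and 576 in replicate 2.

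The haem oxygenases were both low. Hmox1, the inducible haem oxygenase, had 6.02 TPM in replicate 1 and 7.40 in replicate 2. Hmox2, the constitutive one, had 1.51 TPM in replicate 1 and 1.88 in replicate 2, at a ratio to Hmox1 of 0.25 in both libraries. Hmox2 shares 46.0% of its 31-base stretches with other genes, chiefly Cdip1, so its level is uncertain.

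Nqo1, a quinone reductase, was at 0.50 TPM in replicate 1 and 0.27 in replicate 2. Its estimated counts were 42 in replicate 1, with an exact 95% Poisson interval of 30.3 to 56.8, and 17 in replicate 2, with an interval of 9.90 to 27.2, covering counting error only. Hagh, the second glyoxalase, which frees glutathione from the product of the first, had 44.6 TPM in replicate 1 and 27.3 in replicate 2. Its ratio to Glo1, the first glyoxalase, was 1.38 in replicate 1 and 0.33 in replicate 2, so the order of the pair by TPM differed between the libraries. In estimated counts Hagh was below Glo1 in both, at a ratio of 0.55 in replicate 1 and 0.30 in replicate 2.

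Srxn1 over Nqo1 was 32.8 in replicate 1 and 93.9 in replicate 2, and with protein-coding models alone 8.88 and 13.1. Of the 23 pairs of genes set side by side, 13 had the first gene over 2-fold higher in both libraries and 4 had it over 2-fold lower in both. In 5 pairs the genes stood within 2-fold in at least 1 library, and no ratio was given for Sod1 over Sod3. The ratio of Txnrd1 to Txnrd3 was 28.4 in both libraries, and that of Gpx1 to Cat was 2.38 in replicate 1 and 2.37 in replicate 2. In estimated counts, Gpx1 over Cat was 1.72 in replicate 1 and 0.83 in replicate 2, so its steadiness did not hold on the count scale. Txn1 over Glrx, the cytosolic dithiol pair, was 7.02 in replicate 1 and 31.6 in replicate 2.

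**Figure D2:**
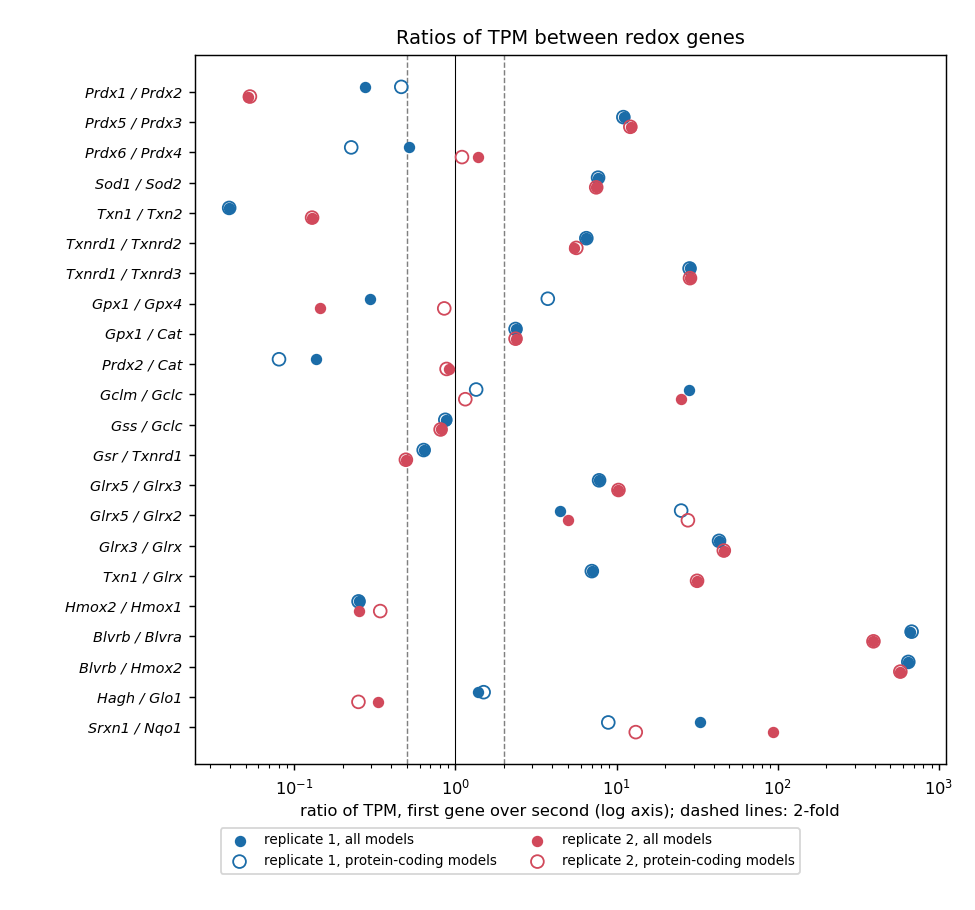
Ratio of TPM between the genes of 22 pairs, first gene over second, on a log axis, in replicate 1 (blue) and replicate 2 (red); filled points use all transcript models, open circles the protein-coding models alone, and dashed lines mark 2-fold. Open circles lie well away from the filled points in Gpx1 over Gpx4 (3.74 in replicate 1 and 0.85 in replicate 2), Gclm over Gclc (1.35 and 1.15), Glrx5 over Glrx2 (25.1 and 27.7) and Srxn1 over Nqo1 (8.88 and 13.1), and in replicate 1 also in Prdx6 over Prdx4 (0.23).

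Between the libraries, estimated counts were scaled with TMM factors and compared over the 10861 genes whose counts averaged 10 or more, 31 of the members among them. The excluded members were Gpx3, Gpx7, Gpx8 and Sod3. No member was over 2-fold higher in replicate 1, beside 1.98% of all genes tested. Over 2-fold higher in replicate 2 were 4 of 31, namely Prdx2, Prdx6, Txn1 and Blvra, beside 7.75% of all genes. Over 2-fold apart in either direction were the same 4, beside 9.73%, and over 1.5-fold apart were 8 of 31, beside 23.3%. In all, 16 of 31 were higher in replicate 1, beside 50.8% of all genes. The SD of the log2 ratio of replicate 1 to replicate 2 was 0.70 over the members and 0.72 over all genes tested. Members ranged from -2.44 for Prdx2 to 0.79 for Nqo1. The genes tested were not matched to the members by counts, so the SDs do not show whether members spread as widely as comparable genes.

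Prdx2 had 21.3 scaled CPM (counts relative to the library total) in replicate 1 and 116 in replicate 2, a log2 ratio of -2.44. Prdx6 had 75.2 in replicate 1 and 188 in replicate 2, a log2 ratio of -1.32. For Txn1 the log2 ratio was -1.44, and for Blvra, on its few counts, it was -1.03. With folds taken from TPM instead, 2 of 31 genes were over 2-fold apart, Prdx2 at 4.62-fold and Txn1 at 2.52-fold higher in replicate 2, whereas Prdx6 was 1.79-fold and Blvra 1.89-fold higher. All 4 genes were thus higher in replicate 2 by both measures. With 2 libraries of 1 group these ratios show the spread between replicates and carry no test.

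**Figure D3:**
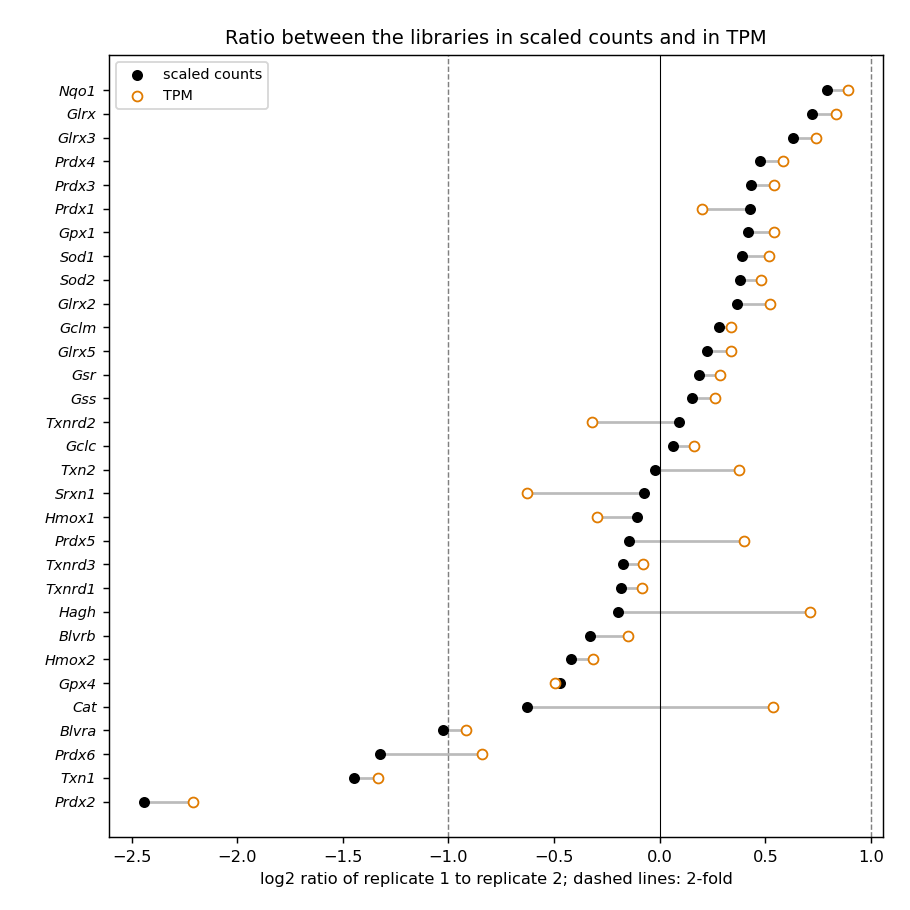
Ratio of replicate 1 to replicate 2 (log2) for the 31 members averaging 10 counts or more, once from scaled counts and once from TPM. Filled points are scaled counts, open circles TPM, and dashed lines mark 2-fold. Prdx2 lies farthest from 0, at -2.44 from scaled counts, and Cat (-0.63 and 0.54) and Hagh (-0.20 and 0.71) have the widest gaps across 0.

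The measures went against each other for Cat and Hagh. Cat, at mm10 chr2:103453849-103485160, had 166 scaled CPM in replicate 1 and 257 in replicate 2, a log2 ratio of -0.63, whereas its TPM gave 0.54. Hagh had a log2 ratio of -0.20 from scaled counts and 0.71 from TPM. In these 2 of 31 members the ratios from TPM and from counts were at least 1.5-fold apart, beside 5.16% of all genes tested, and in the same 2 they also lay on opposite sides of 1, beside 2.25%. Txn2, Prdx5 and Txnrd2 also had their ratios on opposite sides of 1, by less than 1.5-fold. Over all genes tested the TPM ratio lay above the count ratio by a median of 0.10 on the log2 scale.

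Both genes had another leading transcript model in each library. A 779-base coding model of Cat took 84.6% of its TPM in replicate 1 and 30.7% in replicate 2, and the 2613-base model took 15.4% and 69.3%. In Hagh a 388-base coding model took 42.5% of the TPM in replicate 1 and 0% in replicate 2, while a 1191-base coding model took 18.3% and 62.7%. The effective length of Cat was 903 bases in replicate 1 and 1903 bases in replicate 2, and that of Hagh was 478 and 841 bases. The leading model differed between the libraries in 4 of the 21 detected members with more than 1 model, namely Srxn1, Cat, Txnrd2 and Hagh, beside 16.8% of such protein-coding genes. The part of this assignment in the TPM of Cat and Hagh was not tested.

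**Figure D4:**
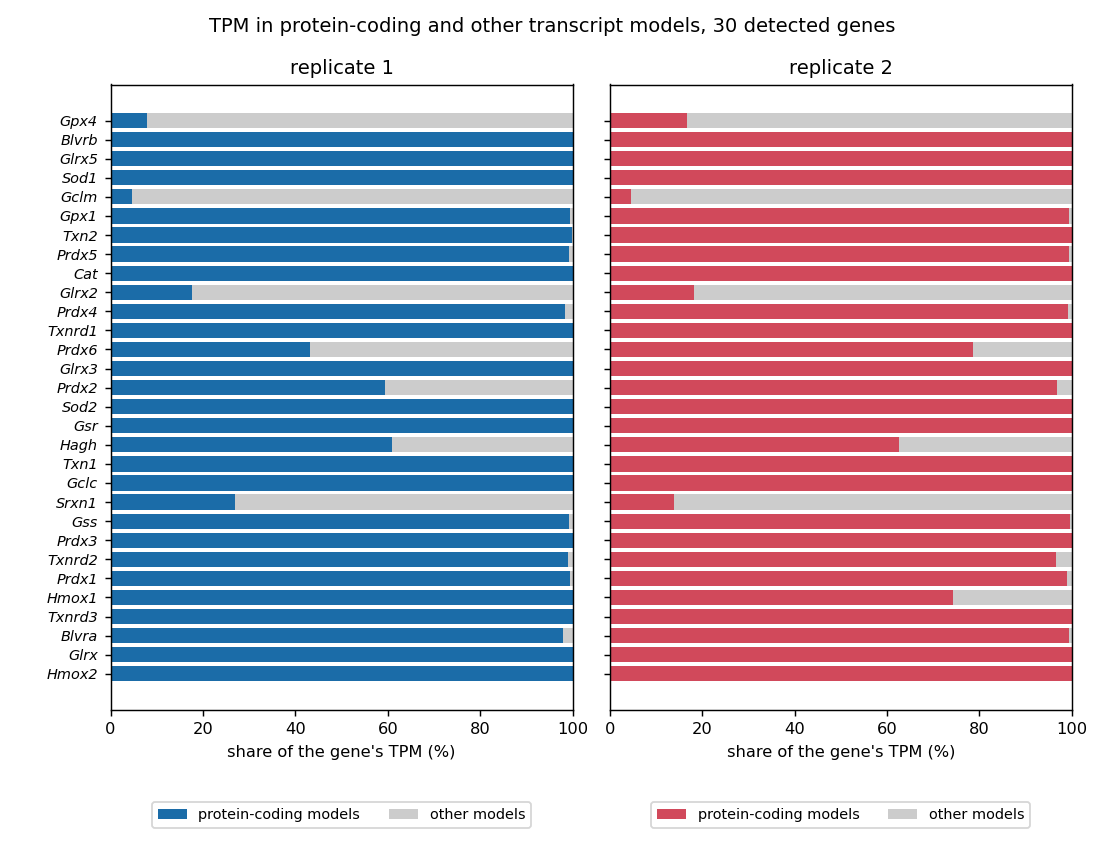
Share of each detected gene's TPM (%, horizontal bars from 0 to 100) in protein-coding transcript models (coloured) and in other models (grey), with replicate 1 in the left panel, replicate 2 in the right and genes ordered by mean TPM. Gclm lies lowest in both panels, at 4.75% in replicate 1 and 4.60% in replicate 2, followed by Gpx4 at 7.83% in replicate 1 and by Srxn1 at 14.0% in replicate 2.

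Protein-coding models held 65.4% of the members' summed TPM in replicate 1 and 61.6% in replicate 2. The share was 16.6% in replicate 1 and 17.1% in replicate 2 for glutathione synthesis and reduction, and 99.9% and 99.8% for the thioredoxin system. Under 50% of TPM lay in coding models in both libraries in 4 of 30 detected members, Gpx4, Gclm, Glrx2 and Srxn1, beside 17.2% of detected protein-coding genes. In Srxn1 the coding share was 27.0% in replicate 1 and 14.0% in replicate 2, and its short non-coding models of 446 and 375 bases share 91.3% and 89.6% of their 31-base stretches with its coding model. In Prdx6 the coding share was 43.1% in replicate 1 and 78.6% in replicate 2, and in Prdx2 it was 59.3% and 96.8%. Both had the larger coding share in replicate 2, the library in which their counts were higher. In Hmox1 a retained-intron model took 0% in replicate 1 and 25.6% in replicate 2.

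Promoter windows, 250 bases before to 50 after the start, came from RefSeq (GRCm38.p6) and were found for 30 of the 35 genes, without Prdx6, Sod3, Gclc, Gsr and Hmox1. The antioxidant response element is the site bound by NRF2, the factor that induces many of these genes under oxidative stress. Its core, searched as TGACNNNGC on both strands, occurred in 7 of the 30 genes (23.3%), beside 14.0% of all genes with such a window and 17.0% of the 6712 detected ones. Shown are the windows of the 2 highest and the 2 lowest of the 7 genes by TPM of all models, since the motif occurred at both ends of that range. Each is printed in the direction of the motif, which lies on the minus strand in all 4, with the core in capitals.
Sod1, chr16:90220694-90220726: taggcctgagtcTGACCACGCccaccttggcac
Gclm, chr3:122245411-122245443: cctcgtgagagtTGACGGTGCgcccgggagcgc
Prdx1, chr4:116685454-116685486: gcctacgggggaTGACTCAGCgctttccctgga
Blvra, chr2:127070596-127070628: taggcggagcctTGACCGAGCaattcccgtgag
In the direction of the gene, the core begins 56 bases before the start in Sod1, 134 in Gclm, 133 in Prdx1 and 49 in Blvra, and the other carriers were Txnrd1, Hagh and Srxn1. Sod1 and Gclm stood above 500 TPM with all models, and Prdx1 and Blvra below 10 TPM. The place of Gclm rested on its non-coding model. Its protein-coding models held 32.5 TPM in replicate 1 and 24.9 in replicate 2, below Txnrd1 at 81.7 and 86.5 TPM.

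The motif TGACTCA, bound by AP-1 and NF-E2, occurred in 3 of the 30 genes, Glrx, Prdx1 and Srxn1, beside 5.95% of all genes, and overlapped the core above in Prdx1. The GATA motif AGATAA occurred in none of the 30 windows, beside 12.7% of all genes and 7.20% of detected ones. A match is a description of letters and not a bound site.

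Of 75 other genes of the pathway, in 7 lists, 49 were detected by the same rule, beside 39.0% of all protein-coding genes. Among the regulators of NRF2 and its partners 7 of 8 were detected, led by Keap1, which holds NRF2 in the cytosol, at 85.0 TPM in replicate 1 and 78.2 in replicate 2, and by the small MAF partners Mafg and Mafk at means of 48.1 and 45.4 TPM. Bach2, a repressor at the same elements, had 0 counts in both libraries. Nfe2l2, the NRF2 gene, stood at 11.5 TPM in replicate 1 and 14.0 in replicate 2 and was named after its values were seen. All 10 genes listed under NADPH supply, which include the pentose phosphate pathway, were detected. The highest were genes of that pathway, with the transketolase gene Tkt at 841 TPM in replicate 1 and 1019 in replicate 2, and Pgls and Taldo1 at means of 499 and 258 TPM. The enzymes of Tkt, Pgls and Taldo1 do not form NADPH themselves. The rest of the list ranged in mean level from 1.20 TPM for Idh1 to 159 TPM for Pgd, both named after their values were seen.

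Cystine uptake and glutathione turnover were detected in 2 of 9 genes, the shared transporter subunit Slc3a2 at 103 TPM in replicate 1 and 120 in replicate 2, and Chac2, which cleaves glutathione, at 1.25 and 3.95 TPM. Oplah came next, at 0.95 and 0.88 TPM. Slc7a11, the cystine-carrying partner of Slc3a2, had 0.02 TPM in both libraries from 8 and 7 counts and was named after its values were seen. Glutathione S-transferases, which join glutathione to foreign compounds, were detected in 5 of 13 genes, led by Gstp1, Gsto1 and Mgst3 at means of 65.1, 32.0 and 8.79 TPM. Other thiol and peroxide genes were detected in 12 of 18, led by Park7 (the gene of DJ-1), the thioredoxin-like Txnl1 and the copper chaperone gene Atox1 at means of 413, 96.2 and 76.6 TPM.

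The genes that make and insert selenocysteine were detected in 6 of 6, led by Sephs2, Pstk and Eefsec at means of 102, 43.2 and 30.98 TPM. Of the selenoprotein genes outside the members, 7 of 11 were detected, led by Selenow, Selenoh and Selenos at means of 1699, 458 and 46.7 TPM. Selenoi, Selenom, Selenon and Selenop were not, at means of 0.77 TPM or less. Among the 6 members with a selenocysteine codon, 5 were detected, Gpx3 being the exception. Over all 35 members 30 were detected, and over all protein-coding genes 39.0%.

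**Figure D5:**
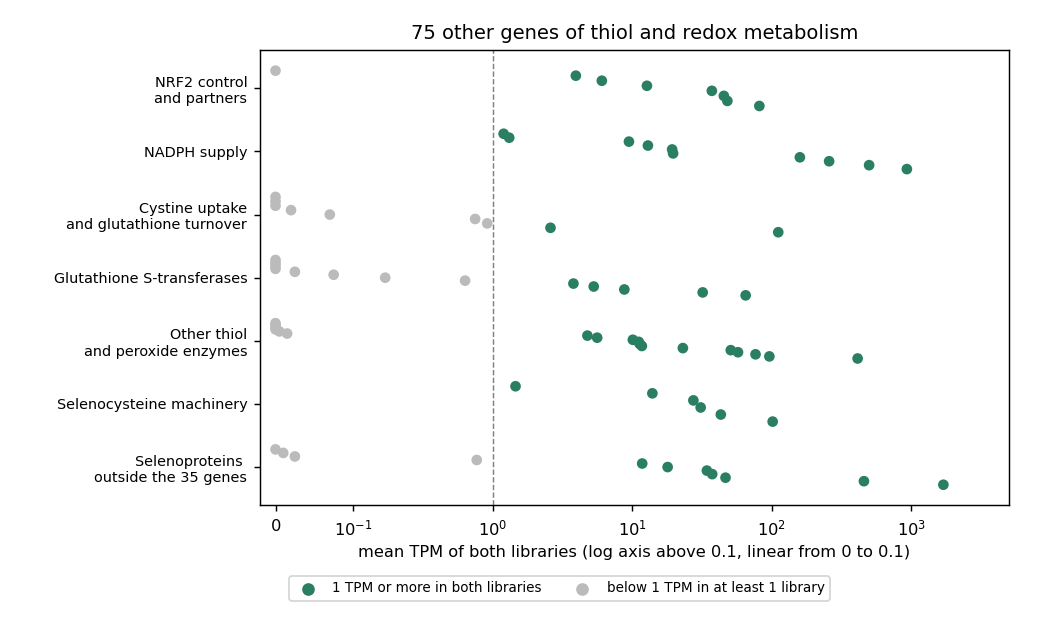
Mean TPM of the 75 other pathway genes by list, with a point for each gene, green where it reached 1 TPM in both libraries and grey otherwise, on an axis that is logarithmic above 0.1 TPM and linear below it. Selenow at 1699 TPM and Tkt at 930 TPM lie highest, and 26 of the 75 genes were not at 1 TPM or more in both libraries.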

How the data were processed

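Paired-end RNA-seq was deposited for 2 libraries of 1 group, with a gene table and a transcript table each. The title calls the RNA polyadenylated, while another label says total RNA. Per the file headers, expected counts are estimated counts, TPM and FPKM were scaled for depth and length by the authors, and the authors' isoform values give each model's percent of its gene. The submitters' processing notes name mm10 and GENCODE M4. For the aligner, the quantifier and the use of strand nothing was found (not given in the sources used here), so genes overlapping an antisense partner are uncertain.

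Names, gene classes, transcript classes and coding sequences came from GENCODE M21 on the same build, matched by identifier without version, and 142 of 144 transcript models of the members matched. The members, lists, pairs and naming rule (all 35 members, the 3 highest genes of each other list, and every undetected gene where 5 or fewer) were chosen with earlier results of these data known. Detection meant at least 1 TPM in both libraries. For ratios between libraries, expected counts were rounded and scaled by TMM (edgeR 4.0.16, R 4.3.3) over genes averaging 10 counts or more. DESeq2 1.42.0 size factors, other thresholds, FPKM, posterior mean TPM as deposited by the authors, coding models and unscaled counts were alternatives. Scaling was also run on simulated counts with 200 genes changed, as many up as down, and with counting error alone. In these data more genes were over 2-fold higher in replicate 2 than in replicate 1. The simulation therefore cannot show how well the scaling held here. Shared sequence was the percent of a gene's 31-base stretches found in models of other genes. Figures and intervals used matplotlib 3.10.9 and scipy 1.17.1. The design allows no test between conditions, and no p-value is given. At 68901065 and 51923116 counts, depth limits only genes with few counts, and intervals cover counting error alone, because PCR copies are not separate molecules.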

Additional observations from a re-analysis of the deposited data

How the results depend on the processing

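No paired analysis was possible because all libraries belong to 1 group. With folds from TPM 2 members, and at a fold of 1.5 8 members, were past the fold between the libraries, against 4 with scaled counts, and at a TPM minimum of 5 the cystine and glutathione turnover list had 1 gene and the glutathione S-transferases 2 genes detected, against 2 and 5. With protein-coding models alone, an alternative chosen after seeing the data like that of counts not divided by length, the mean log2 ratio of Gpx1 to Gpx4 was 0.84 and so reversed, through replicate 1, where the ratio was 3.74, while in replicate 2 it was 0.85 and kept its direction. The cause was not tested. Of the 35 levels, 6 moved by more than 1 SD with FPKM, 5 with coding models and 4 with posterior mean TPM. Within a library FPKM is TPM times a constant factor, so the moves with FPKM reflect a change of units and a small SD, and say nothing about stability. Of the 22 ratios, 15 moved with counts not divided by length, 5 with coding models beside the reversed one, and 2 with posterior mean TPM, the cause again not tested. The other summary counts and medians under the alternatives kept within 1.5 times or 1 SD of the values given. Leaving out either library leaves 1 sample, whose value lies within 1 SD of the mean by construction, and says nothing about stability.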

Other observations

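Some of the other pathway genes differed between the libraries by more than most members did, and are named after their values were seen. Atox1, the copper chaperone gene, had 18.6 TPM in replicate 1 and 135 in replicate 2. Taldo1, the transaldolase gene of the pentose phosphate pathway, had 97.6 TPM in replicate 1 and 418 in replicate 2, and Mgst3, a microsomal glutathione S-transferase gene, had 2.32 TPM in replicate 1 and 15.3 in replicate 2. Like Prdx2 and Txn1, all of these were higher in replicate 2. G6pdx, the first enzyme of the pentose phosphate pathway, had 7.25 TPM in replicate 1 and 18.7 in replicate 2. Its estimated counts were 1085 in replicate 1 and 1213 in replicate 2. Pstk, a kinase gene of selenocysteine synthesis, had 2.52% of its TPM in protein-coding models in replicate 1.

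Across the 30 detected members, the GC percent of the transcript and log2(TPM + 1) had a Spearman rho of 0.26, beside 0.34 across 8364 detected protein-coding genes. These are correlations across genes of the same libraries, which are not independent replicates, and carry no test.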
